A study of Mus musculus with 15 samples.

Results

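Replication-dependent histone genes encode the linker histone H1 and the core histones H2A, H2B, H3 and H4. They were taken here as every gene column whose symbol begins with Hist1, Hist2, Hist3 or Hist4. This gave 67 of 30534 gene columns: 6 for H1, 20 for H2A, 18 for H2B, 10 for H3 and 13 for H4. By the GENCODE M21 annotation of mouse build GRCm38, 64 were protein coding and 3 were pseudogenes (Hist1h2aj, Hist1h2al and Hist3h2bb-ps). Chromosome 13 held 56 of them, chromosome 3 held 7, chromosome 11 held 3 and chromosome 6 held 1. No member was at 0 in every library, and 59 had counts in all 11 libraries. Hist2h2aa1 had 1 count in all.

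The libraries came from mouse embryos, frozen and sectioned at less than 7 µm, in which barcodes flowed through crossing channels give each small square of tissue, a pixel, its own address. Transcripts were counted in 11 libraries: embryonic day 10 (E10) with pixels 10 µm wide (2 libraries), 25 µm wide (1) and 50 µm wide (3); E11 with 10 µm pixels (2) and 25 µm pixels (2); and E12 with 50 µm pixels (1). No strain, genotype or treatment was given for any of them, and neither the embryo nor the body region of a section is stated. Libraries are named by stage, pixel width and replicate number (r1, r2, r3).

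When DNA is copied in S phase, a cell must make new histones for the copy, and transcription of these genes is tied to that phase. Their mRNAs are known for ending in a short stem-loop, bound by the protein Slbp, in place of a poly(A) tail. Replication-independent variants such as H3f3a and H2afz are instead made throughout the cycle from ordinary polyadenylated mRNAs. In an embryo, S phase cells lie in growing tissue such as the lining of the neural tube, while neurons have left the cycle.

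The stem-loop was searched in GENCODE transcripts as 16 bases of the form GGNNNNTTNNNNNNCC in which the first 6 pair with the last 6. It was found in 43 members, against 0.594% of 21877 protein-coding genes. Every such member of the H1, H2A, H2B and H3 classes (4, 11, 10 and 7) had a stem that opens with GGCTC, whereas in H4 the stem opened with GGCCC in 9 members and with GGTCC in 2. The sequences below are shown because they carry the ends of leading members of each class and of the H4 member that rose at E11. Capitals mark the stem and loop, read 5′ to 3′ on the transcript, so in exon sequence.
Hist1h1e (H1, chr13:23620629-23622558, minus strand): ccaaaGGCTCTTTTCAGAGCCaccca
Hist1h2ao (H2A, chr13:21810465-21810944, plus strand): aaaaaGGCTCTTTTCAGAGCCatcca
Hist1h2ap (H2A, chr13:21833026-21833507, minus strand): aaaaaGGCTCTTTTCAGAGCCatc
Hist1h2bj (H2B, chr13:22043214-22043676, plus strand): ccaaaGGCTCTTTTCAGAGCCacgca
Hist1h3b (H3, chr13:23752267-23752886, plus strand): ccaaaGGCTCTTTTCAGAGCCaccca
Hist1h4d (H4, chr13:23581598-23582735, plus strand): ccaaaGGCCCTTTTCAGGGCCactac
Hist4h4 (H4, chr6:136801553-136804415, minus strand): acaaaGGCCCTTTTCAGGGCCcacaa

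The annotated transcripts differed in where this structure lies. In 22 members the longest transcript ended within 100 bases after the stem-loop, as in Hist1h2ap with 3 bases and Hist1h2ao with 31. In 21 members it went on for 100 bases or more, as in Hist1h4d with 770 bases and Hist4h4 with 2445. The other 24 members had no match in their annotated transcripts. Whether the counted histone RNAs ended at the stem-loop or carried a poly(A) tail was not tested. The levels below therefore need not give the full amount of these mRNAs.

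Many members are near-identical copies of each other. Of all 100-base windows of a member's transcripts, 100 bases being the read length, only 7.35% were found in no other gene for Hist1h2ao and 7.83% for Hist1h2ap, and none for Hist2h2aa1 and Hist2h2aa2. Fewer than 50% of windows were unique in 26 members. How the authors' counting treated reads that match several copies is not stated in the sources used here. Class sums are therefore given first, and single columns of low uniqueness are uncertain. Whether a class sum, such as that of H2A, holds such reads more than once was not tested.

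The promoters of 58 members were matched in RefSeq (GRCm38.p6, 250 bases before to 50 after the start). The octamer ATTTGCAT, searched on both strands, was in 13 of them (22.4%, against 1.74% of 32851 promoters), 7 of 17 in H2A and 6 of 15 in H2B. No H1, H3 or H4 promoter held it. In 3 H2A and H2B pairs the same stretch of DNA, read on opposite strands, served both windows, as here for a head-to-head pair on chromosome 13, with the octamer in capitals.
Hist1h2ae (H2A, chr13:23570517-23571220, minus strand): tagaggttctATGCAAATaagggactca
Hist1h2bg (H2B, chr13:23571396-23572013, plus strand): tgagtcccttATTTGCATagaacctcta
A TATA box (TATAAA, both strands) was in 60.3% of the matched members and 13.6% of all promoters, and a CCAAT box (CCAAT, both strands) in 84.5% and 37.4%. These matches describe the letters in the windows and were not tested against the levels.

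Levels are given as CPM, the count of a gene or class per 1000000 counts over the pixels that lie on tissue. Tissue pixels numbered 829 to 2271 and total tissue counts 1563489 to 11998765 per library, of which 5308 to 88479 were histone counts. Median counts per tissue pixel ran from 843.5 (E10 25 µm r1) to 11332 (E10 50 µm r1). Organ genes differed between sections: the summed level of 8 heart muscle genes ran from 17.7 to 6310 CPM and that of 8 liver genes from 8.25 to 3817 CPM. Beside every difference between groups below, the part of the embryo, and fewer cells of a type or less RNA per cell, cannot be told apart from the stage. Markers of cycling cells differed less: Mki67, a protein of proliferating nuclei, ran from 570.0 to 1047 CPM, and Top2a, the topoisomerase that untangles chromosomes before division, from 681 to 1350 CPM.

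Summed over all 67 columns, the histone level was 4955 and 4510 CPM in the E10 10 µm libraries, 3395 in E10 25 µm and 2391, 3359 and 3222 in E10 50 µm. At E11 it was 13138 and 7919 CPM with 10 µm pixels and 17464 and 4627 with 25 µm pixels, and at E12 it was 2376. The E11 libraries therefore held the 3 highest values, while the lowest E11 library lay within the E10 range. Replicates of a group differed most at E11 25 µm, where the mean was 11045 ± 9077 CPM (SD, n = 2).

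H2A was the class with most counts in 9 of 11 libraries. Class sums are not scaled by transcript length. Its sum was 2997, 2398, 1577, 1448, 1368 and 1432 CPM in the E10 libraries, in the same order, 8095, 5391, 14299 and 3097 in the E11 libraries and 936 at E12. No E11 library overlapped an E10 library. H2A made up 40.7% to 60.5% of histone counts at E10, 61.6% to 81.9% at E11 and 39.4% at E12. Hist1h2ao and Hist1h2ap alone held 27.0% to 67.3% of all histone counts.

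H1, which binds the linker DNA between nucleosomes, was the next class. Its sum was 1356, 1373, 1436, 694, 1612 and 1273 CPM at E10, 3816, 1970, 2366 and 1163 at E11 and 943 at E12. Its lowest E11 library lay below most E10 libraries. H1 exceeded H2A in E10 50 µm r2 and at E12 (943 against 936 CPM).

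The other core histones were counted far less. H2B sums ran from 114 to 300 CPM at E10 and from 168 to 673 at E11, and the E12 value was 167. H3 sums ran from 26.2 to 64.9 CPM at E10 and from 40.9 to 139 at E11, and H4 sums from 109 to 375 at E10 and from 158 to 415 at E11. These ranges overlapped between the stages in all 3 classes. H4 at E12 was 293 CPM, 12.3% of histone counts, its highest share in any library.

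**Figure D1:**
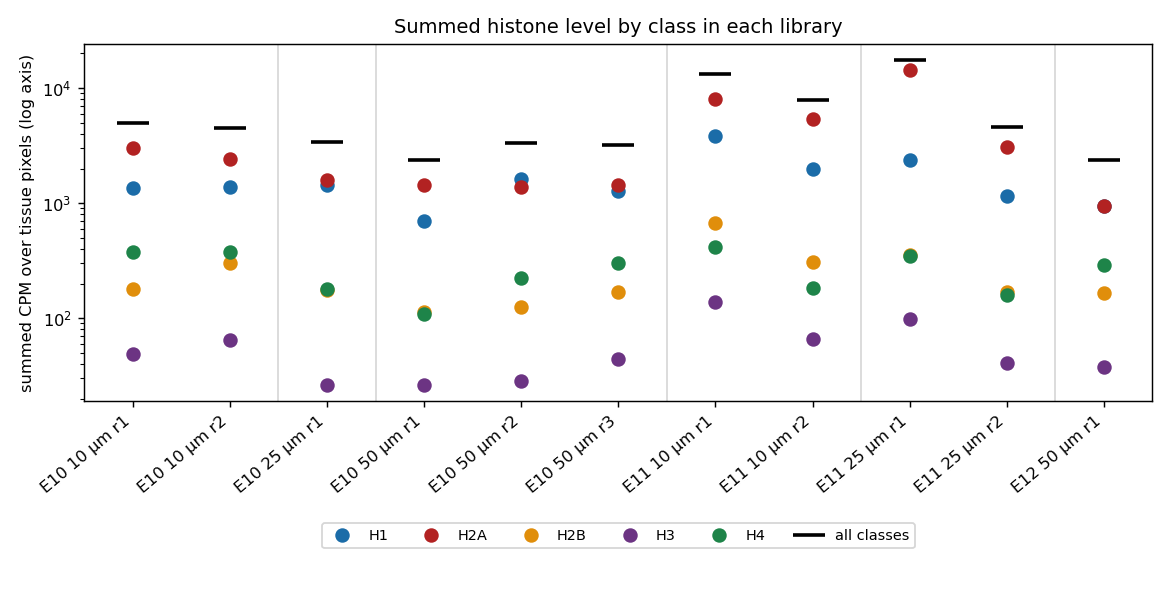
Summed CPM of each histone class (points) and of all classes (bars) in each of the 11 libraries, on a log axis, with groups divided by vertical lines. H2A lies highest in most libraries and reaches 14299 CPM in E11 25 µm r1, while H3 lies lowest in all of them.

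Within H1, Hist1h1e had 555, 482, 675, 220, 719 and 515 CPM in the E10 libraries, 1257, 639, 863 and 434 in the E11 libraries and 326 at E12. Hist1h1c had 122 to 289 CPM at E10, 1003, 531, 627 and 243 at E11 and 130 at E12. Hist1h1d had 122 to 307 CPM at E10 and 128 to 805 at E11. The somatic H1 genes Hist1h1a to Hist1h1e were thus present in every library, whereas Hist1h1t, the H1 of spermatocytes, had 12 counts in total. The other germ line members, Hist1h2aa and Hist1h2ba, had 18 and 99 counts.

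Within H2A, Hist1h2ao had 1193, 892, 620, 511, 521 and 550 CPM at E10, 2395, 1520, 5889 and 1268 at E11 and 317 at E12, and Hist1h2ap lay close to it in each library. Hist1h2ag had 29.8 to 68.9 CPM at E10 and 530, 392, 380 and 77.6 at E11. Per kilobase of the longest annotated transcript the mean over libraries was 2969 CPM for Hist1h2ao and 2965 for Hist1h2ap, against 354 for Hist1h2af, the next H2A member, and 373 for Hist1h1b, the highest H1 member. The pair stood far above the rest on this scale, and whether both columns hold the same reads was not tested.

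The leading H2B columns were Hist3h2ba, with 9.89 to 20.3 CPM at E10 and 13.9 to 58.7 at E11, Hist1h2bc and Hist1h2bj. Hist1h2bj had 12.3 to 22.3 CPM at E10 and 18.4 to 48.2 at E11. In H3 the leaders were Hist1h3i, with 3.84 to 17.4 CPM at E10 and 10.8 to 45.1 at E11, Hist1h3b and Hist1h3e. No H2B or H3 column stood out from its class as Hist1h2ao did.

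In H4, Hist1h4d had 148, 97.2, 49.9, 24.9, 58.3 and 79.1 CPM at E10, 67.7, 26.6, 46.4 and 17.2 at E11 and 95.7 at E12. It was thus highest at E10 10 µm, unlike Hist1h2ao. Hist1h4c ran from 19.5 to 65.7 CPM at E10 and from 41.4 to 85.6 at E11, and Hist1h4h from 12.9 to 58.8 and from 26.2 to 62.6. Each of these ranges overlapped.

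**Figure D2:**
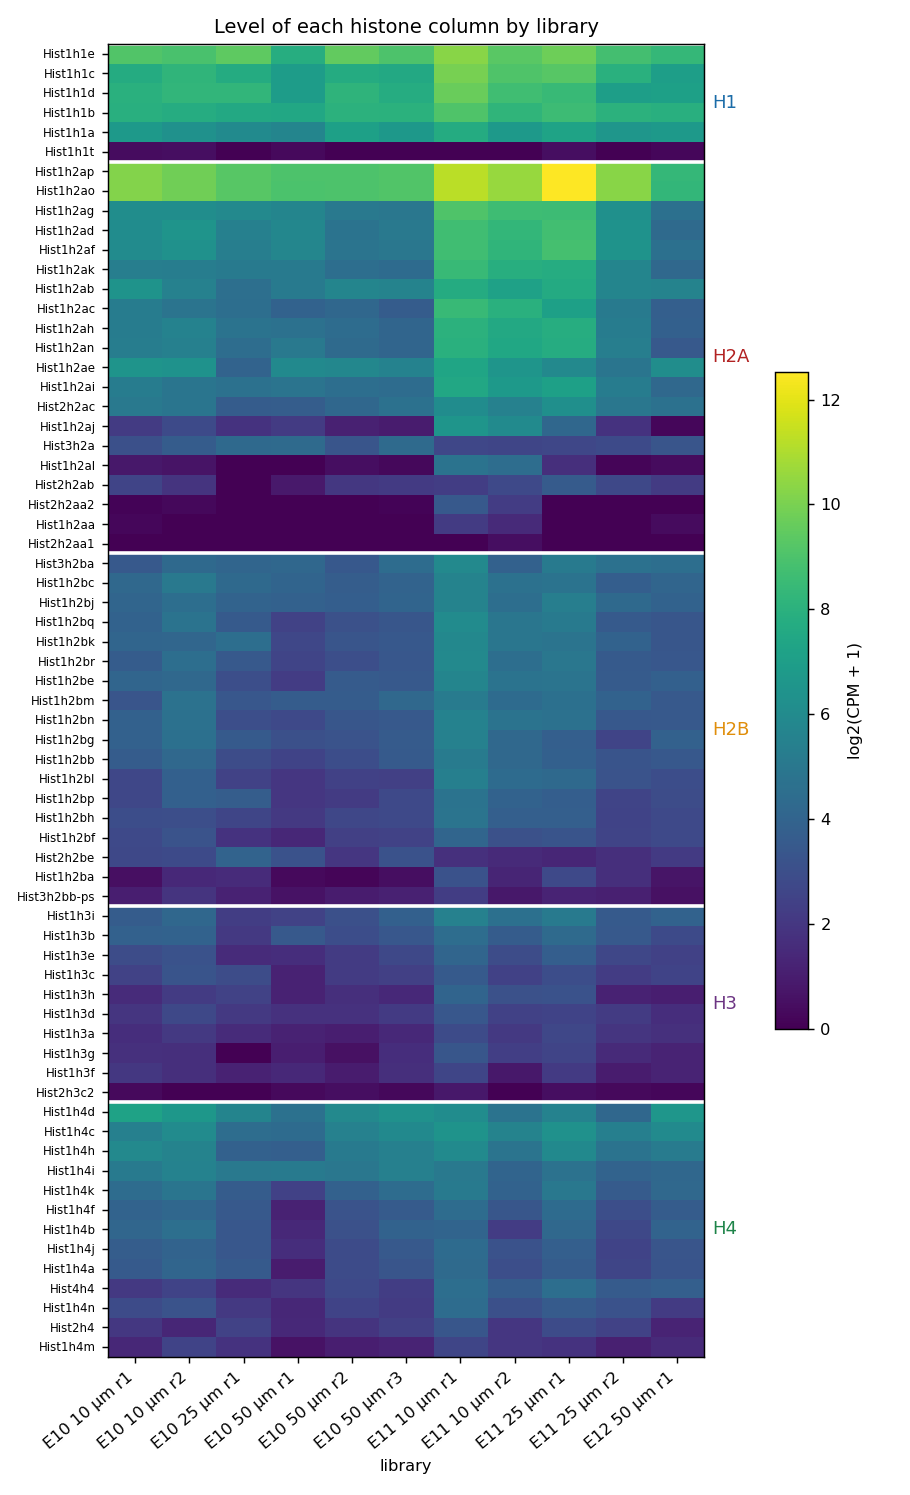
Level of each of the 67 columns (rows, ordered by mean level within a class) in each library, as log2(CPM + 1). Hist1h2ap and Hist1h2ao are the brightest rows, and a block of H2A rows is brighter in E11 10 µm r1 and r2 and in E11 25 µm r1 than in the other libraries.

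Stages were compared with the quasi-likelihood test of edgeR fitted to all 11 libraries, with p-values adjusted by Benjamini-Hochberg over all genes. The stage difference was the mean of the E11 against E10 changes at 10 and 25 µm. H2A rose: its sum was 4.01-fold higher at E11 (log2 fold change 2.00 ± 0.47 SE, adjusted p = 0.0407 by edgeR). The sum of all columns was 2.90-fold higher (1.54 ± 0.44, adjusted p = 0.0712 by edgeR) and did not pass 0.05, whereas with DESeq2 it did (1.57, adjusted p = 0.00160). H1 (0.79 ± 0.39), H2B (0.90 ± 0.37), H3 (1.23 ± 0.39) and H4 (0.18 ± 0.42) did not pass, with adjusted p of 0.242, 0.168, 0.0984 and 0.832 by edgeR. Whether H2A changed more than the other classes was not tested.

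The H2A difference leaned on single libraries. Without E11 25 µm r1 the log2 fold change fell from 2.00 to 1.23 (adjusted p = 0.0657 by edgeR). It was also lost without either E10 10 µm library, any of the E10 50 µm libraries or E11 10 µm r2, with log2 fold changes from 1.94 to 2.13 and adjusted p from 0.0524 to 0.0862 by edgeR. Without E11 25 µm r2 the sum of all columns passed (1.88, adjusted p = 0.0133 by edgeR). The groups hold 1 to 3 libraries, and nothing in the labels says that replicates came from separate embryos, so the p-values measure the spread between these libraries.

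Of the 64 columns tested in this stage difference, 9 rose and 1 fell, where 1.93% of all 18233 genes rose and 1.67% fell. The fold change was above 0 in 58 members, with a median log2 fold change of 1.18 (1.17 with members that have no count in a group at their bound), against 0.05 over all genes. By class, 8 of 19 H2A columns and 1 of 13 H4 columns rose, 1 of 18 H2B columns fell, and none of 5 in H1 or 9 in H3 passed. DESeq2 called 21 members higher and 1 lower, where it called 2.67% of 30104 genes higher and 589 of them lower. Genes without an adjusted p in DESeq2 were counted as not called, here and below. With 1 library left out the number of columns called changed widely. Without E10 10 µm r1 or r2 the share of columns called came nearer to that of all genes. The median log2 fold change over members ran from 0.79, without E11 25 µm r1, to 1.43, without E11 25 µm r2. Over all genes it was 0.03 in both fits. Columns of a class can share reads, so these counts are not independent.

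Hist1h2ac had 36.7, 26.8, 21.7, 14.2, 17.0 and 11.4 CPM at E10, 342, 245, 136 and 35.3 at E11 and 13.1 at E12. All but E11 25 µm r2 lay above the E10 range, and the log2 fold change was 2.69 ± 0.48 (SE, adjusted p = 0.0164 by edgeR). Of its 100-base windows 91.9% were unique, but 2010 of the 2482 bases of its longest transcript follow the stem-loop. Where its reads lie was not tested. This call was kept in all 10 fits that left out 1 library and was lost when only the groups compared were fitted (adjusted p = 0.0515 by edgeR).

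Hist4h4, an H4 gene outside the large clusters, had 3.25, 4.72, 1.92, 2.82, 5.84 and 3.86 CPM at E10, 22.2, 11.3, 21.9 and 11.2 at E11 and 12.6 at E12. Its E11 and E10 libraries did not overlap, and it was 2.68 ± 0.54 higher on the log2 scale (adjusted p = 0.0216 by edgeR). The E10 25 µm library gave 3 counts of it against 197 at E11 25 µm, a ratio of 8.06 with a 95% counting interval of 2.72 to 39.4. Without E11 25 µm r1 the call was lost.

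The other H2A columns that rose were Hist1h2af (2.63 ± 0.58), Hist1h2an (2.58 ± 0.60), Hist1h2ak (2.53 ± 0.50), Hist1h2ag (2.47 ± 0.53) and 3 more with log2 fold changes from 1.64 to 2.49. Of the 8 H2A columns, 5 had fewer than 50% unique windows. Apart from Hist1h2ac, each of these calls was lost in at least 2 of the 10 fits that left out 1 library. Hist1h2ao (1.83 ± 0.48) and Hist1h2ap (1.82 ± 0.47) had adjusted p of 0.0587 and 0.0582 by edgeR.

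Hist2h2be, an H2B gene known from non-dividing cells such as olfactory neurons, went the other way. It had 5.67, 6.04, 14.7, 7.84, 2.98 and 7.90 CPM at E10, 2.33, 1.82, 1.58 and 2.21 at E11 and 3.38 at E12. It fell by 2.11 on the log2 scale (SE 0.46, adjusted p = 0.0285 by edgeR), and no E11 library reached the lowest E10 library. The call was lost in 4 of the 10 fits that left out 1 library, including the one without E11 25 µm r1.

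**Figure D3:**
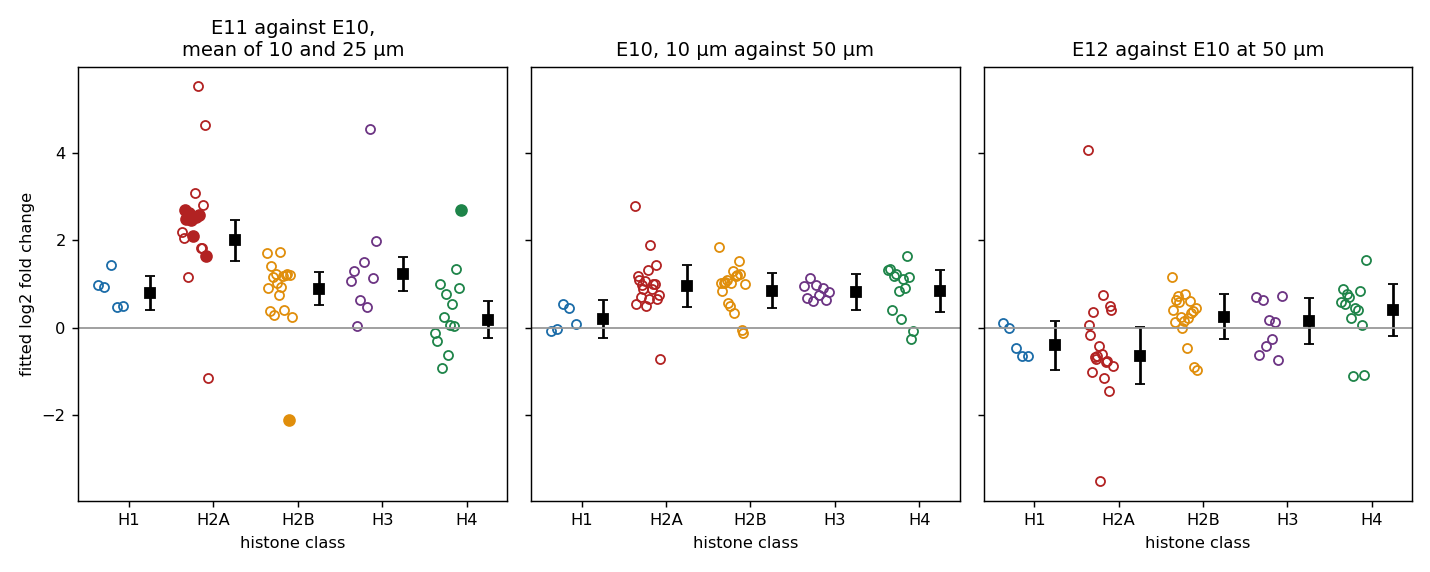
Fitted log2 fold changes of single columns (circles, filled where called at adjusted p under 0.05) and of class sums (squares, bars ± SE) in 3 comparisons. In the left panel 8 H2A columns and Hist4h4 are filled above 0 and Hist2h2be below, and in the middle and right panels no circle is filled.

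At 10 µm alone, 6 H2A columns rose at E11 and none of any class fell, where 2.56% of all genes rose and 0.773% fell. The median over members was 0.89. The H2A sum was 1.30 higher on the log2 scale (adjusted p = 0.218 by edgeR) while the H4 value was -0.35 (adjusted p = 0.745 by edgeR). Without either E10 10 µm library none was called, and without either E11 25 µm library 11 of 64 were (17.2%, against 3.33% and 3.28% of genes in either direction). The 2 H2A pseudogenes were among the columns that rose. Hist1h2al had at most 0.75 CPM in the E10 libraries, 26.5 and 21.2 in E11 10 µm, 2.17 and 0.13 in E11 25 µm and 0.31 at E12 (5.08 ± 0.97 at 10 µm, adjusted p = 0.0142 by edgeR). Hist1h2aj had 0.94 to 6.04 CPM at E10, 91.0 and 62.0 in E11 10 µm, 17.4 and 2.60 in E11 25 µm and 0.15 at E12 (3.99 ± 0.87, adjusted p = 0.0408 by edgeR). Both were thus far higher in the E11 10 µm libraries than in any other.

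Hist2h2aa2, which has no unique window, had 36 counts in the E11 10 µm libraries and 2 in the E10 10 µm libraries, a ratio of 58.6 with a 95% counting interval of 15.1 to 502. Hist1h2ac (3.18 ± 0.56) and Hist1h2ak (2.85) also rose at 10 µm. Other features of the E11 10 µm libraries moved with these columns. Gm42418, a gene that overlaps ribosomal RNA sequence, stood at 230 and 148 CPM there and at 5.45 to 30.1 elsewhere, Rn18s-rs5 at 65.7 and 65.3 against 0.38 to 23.1, and pseudogenes as a whole at 126236 and 142066 CPM against 60924 to 108758. Gm26917, from the same list of RNAs made without a poly(A) tail, did not move with them. It stood at 191 and 107 CPM there and at 117 to 342 elsewhere. The part of these features in the histone values was not tested. When pseudogenes were left out of the table, 0 histone columns were called at 10 µm, and over all genes the number called went from 467 higher and 141 lower to 22 and 21. The fold changes stayed about as large: the median over members was 0.97, and Hist1h2ac was 3.27 higher on the log2 scale (adjusted p = 0.0509 by edgeR).

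At 25 µm, where E10 had 1 library, no histone column was called by edgeR (0.214% of genes rose and 0.241% fell), although 23 of 64 had a p under 0.05 before adjustment (35.9%, against 13.8% of all genes) and 12 of 67 were called higher with DESeq2 (17.9%, against 0.741% of genes). Without E11 25 µm r2, 10 of 64 were called (15.6%, against 0.296% of genes in either direction). The median over members was 1.22, and the H2A sum was 2.70 higher on the log2 scale (adjusted p = 0.165 by edgeR). The difference between the 2 pixel widths in the E11 against E10 change was tested as an interaction. It was -1.40 for H2A (adjusted p = 0.693 by edgeR) and -0.81 for all columns (adjusted p = 0.828 by edgeR), and no member was called (0.132% of genes were higher and 0.00548% lower), with 2 of 64 at an unadjusted p under 0.05 (8.44% of genes) and 0 by DESeq2.

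Pixel width was compared within a stage. At E10 the histone sum was 0.68 ± 0.47 higher on the log2 scale with 10 µm than with 50 µm pixels (adjusted p = 0.673 by edgeR). In 57 of 64 columns the value was above 0, with a median of 0.94 (0.92 with bounds), yet none was called by edgeR or DESeq2 and 10 of 64 had an unadjusted p under 0.05 (15.6%, against 10.8% of genes). Over all genes 0.00548% were higher and 0.104% lower. At E11, 10 µm against 25 µm, the sum was -0.21 ± 0.52 (adjusted p = 0.928 by edgeR) and turned to 1.10 without E11 25 µm r1. Here 2 columns were higher, where 1.62% of genes were, and none was lower (0.455% of genes). They were Hist1h2al (4.34 ± 0.95, adjusted p = 0.0363 by edgeR) and Hist2h2aa2, with 36 counts against 0, at least 28.8-fold higher if 0 is taken as 3 counts over the group. Without E11 25 µm r1, 6 columns were called (9.38%, against 0.561% of genes), and none without E11 10 µm r1 or E11 25 µm r2.

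At 50 µm the single E12 library was set against the 3 of E10. The histone sum was -0.38 ± 0.61 on the log2 scale (adjusted p = 0.845 by edgeR), H1 -0.40, H2A -0.64, H2B 0.26, H3 0.15 and H4 0.42. No column was called by edgeR or DESeq2, 3 of 64 had an unadjusted p under 0.05 (4.69%, against 14.4% of genes), and 38 of 64 were above 0. Over all genes 1.93% were higher at E12 and 0.214% lower. The E12 library is assumed to vary like the other groups, and it held the most red cell RNA, with 5 of 9 globin and red cell genes higher and 1 lower at E12.

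Lists of genes that serve or accompany histone supply held 0 to 2 calls each in the E11 against E10 difference, all of them higher, where 1.93% of all genes were called higher. Mki67 (-0.26 ± 0.24, adjusted p = 0.527 by edgeR), Top2a (-0.01 ± 0.27, adjusted p = 0.997 by edgeR) and Slbp (-0.58 ± 0.25, adjusted p = 0.178 by edgeR) did not pass. Of 14 genes for histone transcription and 3′ end processing 1 rose, Sympk, a scaffold of the cleavage complex (1.40). Of 9 chaperones that carry or deposit new histones 2 rose, the importin Ipo4 (1.06) and Rbbp4 (0.97). Of 11 replication-independent histones none was called. Of 19 S phase genes 1 rose, the cyclin Ccne1 (1.09), and of 16 G2/M genes 1 rose, the ubiquitin enzyme Ube2c (1.34). The medians of these lists lay between -0.02 and 0.19, against 1.18 for the replication-dependent members and 0.05 for all genes. Of 12 RNAs made without a poly(A) tail only 3 were tested. Their median was 1.87, and 1 of them was called higher. At 10 µm the clamp gene Pcna fell by 1.45 on the log2 scale.

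Among cell type markers, some genes were lower at E11, where 1.67% of all genes were called lower. Of 8 neuron genes 3 fell (Elavl4 by 1.69, Dcx by 1.25 and Stmn2 by 1.20 on the log2 scale), and their summed level ran from 715 to 2772 CPM at E10 and from 210 to 783 at E11. These ranges overlapped. Of 9 red cell genes 2 fell. The 3 neuron genes thus fell at the stage where the H2A sum rose, and the part of neurons in it was not tested.

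Across the tissue, histone counts were widespread. At least 1 histone count was present in 82.0% to 100% of tissue pixels, an H2A count in 56.2% to 98.9% and an H3 count in 2.27% to 36.6%. A pixel of 10 µm or more can hold parts of several cells, so pixel values are not those of single cells. Moran's I, which is 0 without spatial order and near 1 when neighbouring pixels are alike, was 0.139 to 0.577 for the histone share of pixel counts.

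Histone level was higher in pixels with counts of Mki67 or Top2a. For this, pixels of a library were cut into 10 classes of total count, and the ratio of observed to expected histone counts was compared between pixels with and without such counts. Pixels with such counts were deeper, with a median total of 912 to 10663 counts against 669 to 3777 in the 10 libraries with a value. The log2 ratio was 0.26 and 0.31 in the E10 10 µm libraries, 0.11 at E10 25 µm, 0.11 and 0.13 at E11 10 µm, 0.40 and 0.95 at E11 25 µm and 0.35 at E12. E10 50 µm r2 and r3 gave 1.60 and 2.03, but each had only 2 pixels without counts, and E10 50 µm r1 had none and gave no value. The mean was 0.63 ± 0.68 (SD, n = 10 libraries, 10 of 10 above 0), with an adjusted p of 0.00391 in a two-sided exact sign-flip permutation test, whose raw p of 0.00195 is the smallest that 10 libraries allow.

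Over the 8 libraries with at least 20 pixels in each set the mean was 0.33 ± 0.28, a 1.26-fold higher level (8 of 8 above 0, adjusted p = 0.0117, exact sign-flip permutation test). With every tissue pixel of at least 1000 counts thinned to 1000, it was 0.29 ± 0.09, or 1.22-fold, with a value in all 11 libraries. Pixels below 1000 counts were left out there, and at E10 25 µm the median tissue pixel had 843.5 counts. By class the mean over libraries with a value was 0.52 for H1, 0.56 for H2A and 0.62 for H4, above 0 in each library with a value (adjusted p at most 0.00586, exact sign-flip permutation test). Over the 8 libraries with at least 20 pixels in each set it was 0.34 for H1, 0.34 for H2A and 0.49 for H4, each above 0 in 8 of 8 (adjusted p = 0.0117, exact sign-flip permutation test), and without E10 50 µm r3 alone the H2A mean went from 0.56 to 0.34. H2B (0.30) and H3 (0.37) were above 0 in 6 of 8 libraries each, with adjusted p of 0.113 and 0.117 by the same exact test. Without the H2A columns the summed ratio was 0.55.

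The deposited grids showed bands, and these moved with the result. Grid rows accounted for 8.82% to 45.3% of the variance of the histone level between pixels and for 5.17% to 29.4% of that of Mki67 and Top2a. Taking the tenth of pixels richest in Mki67 and Top2a, the log2 ratio was 0.39 ± 0.24 within depth classes (11 of 11 libraries, adjusted p = 0.00117, permutation test). Within grid rows it was 0.18 ± 0.13, again above 0 in 11 of 11 (adjusted p = 0.00293, permutation test), with a lowest value of 0.003 in E10 25 µm r1 and a highest of 0.45 at E12. Whether a row band is tissue or channel was not tested.

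As a description, Pearson's correlation across pixels between the histone level and Mki67 plus Top2a, both as log2(count per 10000 + 1), was 0.08 to 0.57 with a median of 0.29 (n = 829 to 2271 pixels, which share library, depth and neighbours). It was 0.06 to 0.43 for Mki67 alone and 0.08 to 0.52 for Top2a alone. Over blocks of 5 by 5 pixels it was 0.38 to 0.88 with a median of 0.52 (n = 45 to 100 blocks). The relation was thus positive in all libraries at both scales.

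**Figure D4:**
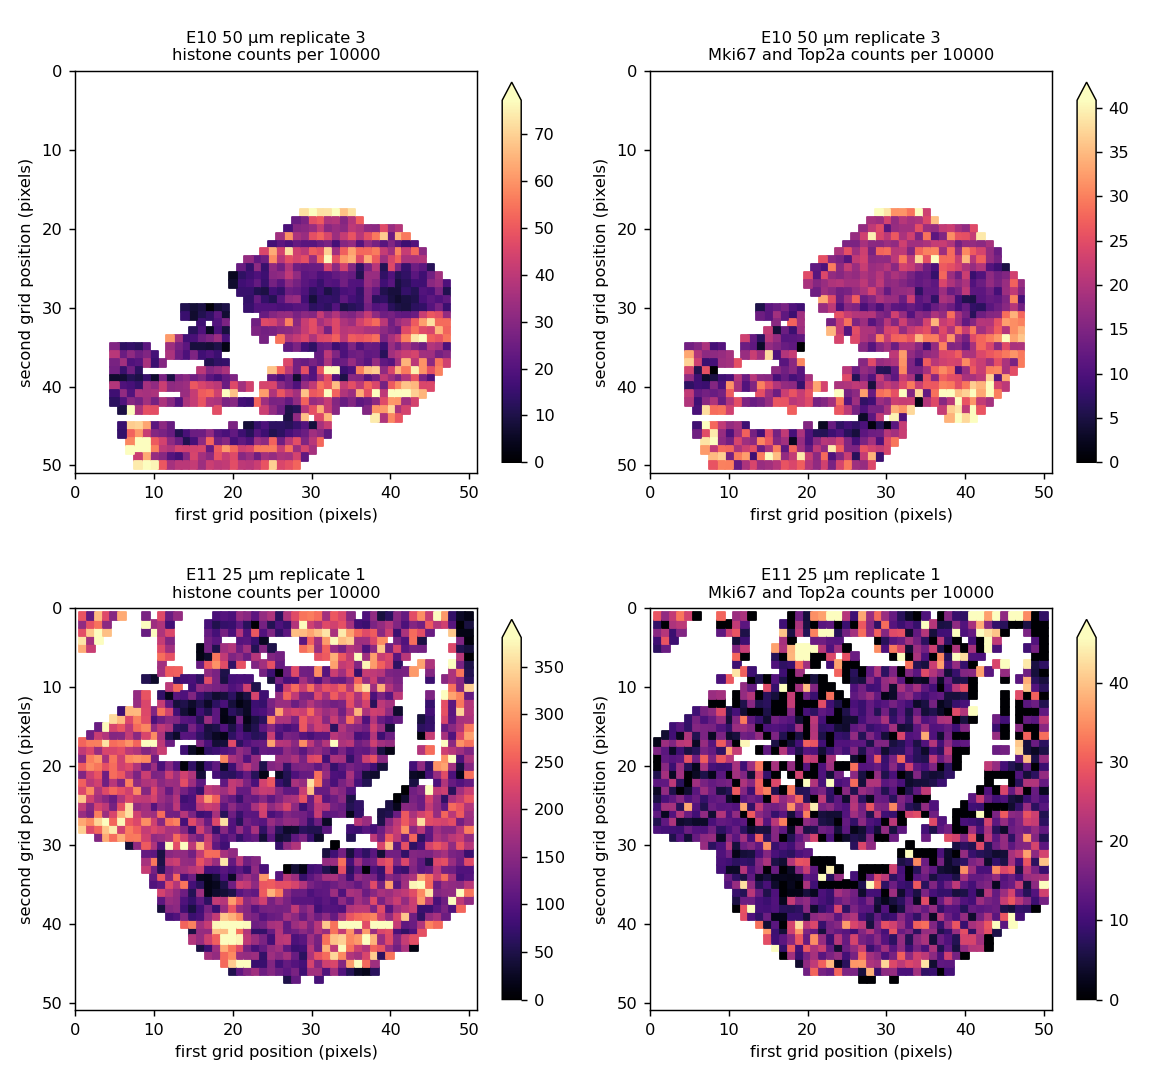
Histone counts (left) and Mki67 plus Top2a counts (right) per 10000 counts in each tissue pixel of E10 50 µm r3 (top) and E11 25 µm r1 (bottom), by grid position. In E10 50 µm r3 horizontal bands low or high in histone counts cross the section, and in E11 25 µm r1 patches of high histone level lie at the left edge and at the lower border.

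The histone level was then compared between the tenth of pixels richest in each of 7 marker lists and the rest. It was higher where G2/M genes were rich (mean log2 ratio 0.36, 11 of 11 libraries) and where S phase genes were rich (0.27, 11 of 11), each with an adjusted p of 0.00342 in a permutation test over libraries. It was lower where neuron genes (-0.48, below 0 in 10 of 11) or heart muscle genes (-0.42, 10 of 11) were rich, with the same adjusted p of 0.00342. Red cell (-0.08, adjusted p = 0.0399) and liver lists (-0.10, adjusted p = 0.0246, permutation test) showed smaller differences. In 4 of 11 libraries some of the liver-rich pixels held no liver count, and in E10 10 µm r2 only 63 of 227 heart-rich pixels held a heart count. Over the libraries in which every such pixel held a count, the heart muscle value was -0.44 (n = 10, adjusted p = 0.00684, permutation test) and the liver value -0.06 (n = 7, adjusted p = 0.219, exact permutation test), which no longer passed. For neural progenitor genes the value was 0.04 (adjusted p = 0.370, permutation test), with single libraries from -0.29 to 0.16.

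Within grid rows the G2/M value was 0.17 and the S phase value 0.15, while neuron (-0.37) and heart muscle (-0.41) stayed lower, each with an adjusted p of 0.00547 in a permutation test. The red cell value was -0.14 with the same adjusted p, and the liver value was -0.02 (adjusted p = 0.526, permutation test). By class, the histone level in S phase rich pixels was higher within depth classes for H1 (0.30), H2A (0.28) and H2B (0.20), and the values for H3 (0.01) and H4 (0.04) did not pass, with adjusted p of 0.983 and 0.745 in permutation tests. Within grid rows the H1 value was 0.15 and the H2A value 0.18, and both passed, whereas H2B (0.12, adjusted p = 0.0588, permutation test), H3 (-0.10) and H4 (-0.02) did not.

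**Figure D5:**
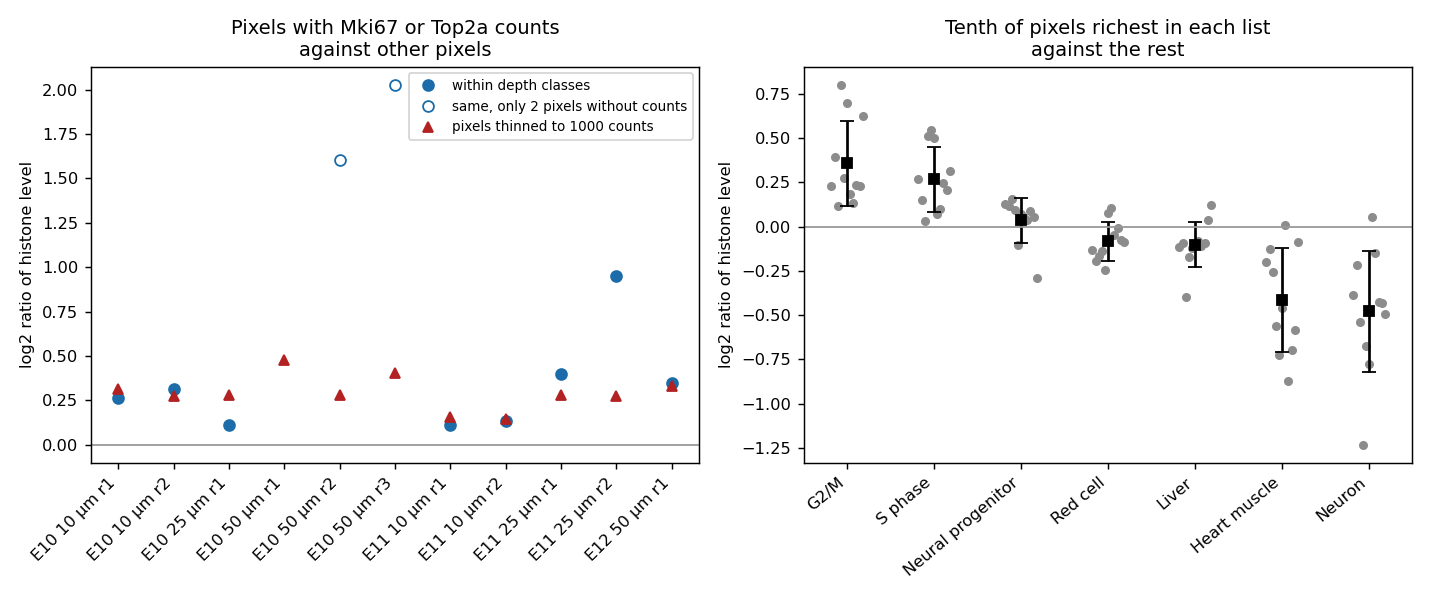
Left, log2 ratio of histone level in pixels with Mki67 or Top2a counts against other pixels, per library. Circles are values within depth classes, open where only 2 pixels lack counts. Triangles are values after thinning pixels of at least 1000 counts to 1000. Right, the same ratio for the tenth of pixels richest in each marker list, with libraries as grey points and mean ± SD in black, which runs from 0.36 for G2/M to -0.48 for neuron.

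Other gene lists were put through the same comparison of pixels with and without Mki67 or Top2a, over the 8 libraries with at least 20 pixels in each set and with p-values adjusted over 9 lists. The histone ratio exceeded that of S phase genes by 0.14 (8 of 8 libraries), of replication-independent histones by 0.26 (7 of 8), of chaperones by 0.20 (7 of 8), of processing genes by 0.24 (7 of 8) and of neuron genes by 1.05 (8 of 8). Each had an adjusted p of 0.0281 in an exact sign-flip permutation test. The difference from G2/M genes, taken here without Mki67 and Top2a, was 0.06 ± 0.14 (SD, adjusted p = 0.246, exact permutation test). The differences from neural progenitor genes (0.37, adjusted p = 0.0586) and from RNAs made without a poly(A) tail (0.25, adjusted p = 0.0603, exact permutation test) did not pass. The difference from red cell genes was 0.04 ± 0.41 (adjusted p = 0.797, exact permutation test).

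Counts of near-identical columns were divided evenly. Of the counts of Hist1h2ao and Hist1h2ap in a library, 49.4% to 50.1% fell to Hist1h2ao. Within pixels, the variance of that split was 0.49 to 0.93 of what independent random division gives, below 1 in all 11 libraries. For Mki67 and Top2a, which share no sequence, it was 1.24 to 2.08. Over pairs of histone columns it was below 1 in 5.88% to 100% of pairs of the same class and in 0% to 10.5% of pairs of different classes, and the first share was the larger in 10 of 11 libraries. The exception was E10 50 µm r2, with 1 of 17 pairs of the same class and 4 of 38 of different classes. The shares lay far apart in E11 10 µm r1, with 48 of 76 and 5 of 60, whereas at E12 they were 1 of 17 and 0 of 38. For Hist1h1c and Hist1h1e it was 0.53 to 1.25 over libraries. A value below 1 is more even than independent division gives, and how reads were shared between copies was not tested.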

How the data were processed

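Members and lists were chosen with earlier results of these data known. The authors deposited whole-number counts per gene symbol and pixel, with no normalization. Per the submitters' processing notes, CASAVA 1.8.2 was used and the build is named GRCh38, a human name; aligner, annotation, strand, collapsing of duplicate molecules and treatment of multiply matching reads are not given in the sources used here. Per the labels' protocols, libraries were made with Nextera XT and sequenced in paired mode. The 4 antibody libraries were not used.

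A pixel was kept as tissue at 0.1 of the 95th percentile of pixel totals. Counts were summed over tissue pixels, giving 1563489 to 11998765 per library, and tested with edgeR 4.0.16 (R 4.3.3; TMM, robust quasi-likelihood fit of 6 group means, default filter on low counts), which left 18233 genes and 5 residual degrees of freedom. Histone columns were replaced by 1 summed row or 5 class rows for the sums. P-values are two-sided and adjusted by Benjamini-Hochberg, with 0.05 as the threshold. DESeq2 1.42.0, other filters and omission of each library were alternatives. Pixel ratios were tested over libraries by sign flips, with pixels never taken as replicates. Intervals and the floor of 3 counts cover counting error only. Replicate libraries differed far beyond sampling noise (chi-square 24.6 to 70.0 times its degrees of freedom), so each was counted once. The fits and pixel ratios were tested on simulated data. Named members were the 3 highest by mean CPM per class and up to 5 called in each direction per comparison, and of the lists up to 3 called genes in each direction. Sequences came from GENCODE M21 and RefSeq, and 3 annotated members had no column in the tables (matplotlib 3.10.9, pandas 2.3.3).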

Additional observations from a re-analysis of the deposited data

How the results depend on the processing

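Most recomputed sums, counts and pixel ratios kept their direction and their side of the threshold (868 values). These include results that passed neither in the main setting nor in the other. A further 23 turned direction, none of them past the threshold. The H2A sum, the only sum that passed in the stage difference, was lost in most of its alternative settings. The rest are given here, with fits that left out 1 library mainly as ranges. Where no value beside a result shows a cause, the cause was not tested. Groups of 1 to 3 libraries limit the stage comparisons, and comparisons that need E10 25 µm or E12 could not be fitted without that library. With 1 library of an arm left out, the lone one is assumed to vary like the other groups.

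For E11 against E10 (mean of 10 and 25 µm), H2A no longer passed without pseudogenes (log2 fold change 2.04, adjusted p = 0.0524 by edgeR) or with only the groups compared (2.02, adjusted p = 0.135). Passed instead were H2B (0.88) and H3 (1.21) with no filter on low counts, H3 with DESeq2 (1.26), and the histone sum with no filter (1.51) and with DESeq2 (1.57). At 10 µm H2A passed with no filter (1.24). At 25 µm, H2A (2.72), H3 (1.65) and the sum (1.96) passed with no filter, and H2A (2.72) and the sum (1.96) with DESeq2.

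For E11 10 µm against 25 µm, the histone sum turned from -0.21 to 0.55 without H2A columns and to 0.61 without Hist1h2ao and Hist1h2ap, both chosen after seeing the data. The interaction of stage and pixel width turned from -0.81 to 0.27 and 0.20 under the same omissions. With the replicate number of the E11 titles as a block the sum was 0.10 and 0 columns were called. Deviations of libraries of the same number correlated at 0.16 over 11563 genes, with only 2 pairs, so the libraries share a number and no pairing was assumed.

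The count of histone columns called for E11 against E10 (10 in the stage difference) was 33 with no filter, 1 with only the groups compared and 22 with DESeq2, or 15.6%, 49.3%, 1.56% and 32.8% of the members tested, against 3.6%, 6.6%, 1.68% and 4.62% of all genes. At 10 µm it was 20, 11 and 13 under these settings (6.1%, 2.45% and 3.15% of all genes) and 0 without pseudogenes (0.27%), and at 25 µm 19, 10 and 12 (2.23%, 2.94% and 1.25%). For E10 10 µm against 50 µm it was 5 with no filter (7.46% of members, 2.43% of genes). For E11 10 µm against 25 µm it was 8 with no filter (2.89% of genes), 0 without pseudogenes (0.163%), 1 with only the groups compared (2.86%) and 5 with DESeq2 (1.84%). At E12 it was 1 with no filter (1.49% of members, 4.41% of genes).

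With 1 library left out, log2 fold changes for E11 against E10 in the mean ranged from 1.23 to 2.37 for H2A, 0.82 to 1.49 for H3, -0.18 to 0.43 for H4 and 0.88 to 1.88 for the sum. At 10 µm they ranged from 1.02 to 1.54 for H2A and -1.002 to 0.11 for H4. At 25 µm they ranged from -0.13 to 0.98 for H1, 1.15 to 3.44 for H2A and -0.016 to 1.20 for H4. In some of these fits H3 in the mean and H2A at 10 or 25 µm passed the threshold. The interaction ranged from -2.13 to 0.15 for H2A, -0.43 to 0.88 for H2B and -1.48 to 0.50 for the sum. For E11 10 µm against 25 µm they ranged from -1.24 to 1.04 for H2A, -0.17 to 1.24 for H3, -0.55 to 0.83 for H4 and -0.89 to 1.10 for the sum, and for E10 10 µm against 50 µm from -0.051 to 0.54 for H1. Columns called ranged from 3 to 21 in the mean, 0 to 11 at 10 µm, 0 to 10 at 25 µm and 0 to 6 for E11 10 µm against 25 µm. The share of all genes called also changed widely between these fits, in each of these comparisons. The ranges of columns called therefore do not show how far the histone columns differ from other genes.

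For pixels with Mki67 or Top2a counts, the H2B ratio passed with no depth classes (0.36), Mki67 alone (0.66), grid columns (0.31) and the tenth of pixels richest in both genes within depth classes (0.35), grid rows (0.18) and grid columns (0.29). The H3 ratio passed with no depth classes (0.56), Mki67 alone (0.47), Top2a alone (0.40), grid columns (0.53) and the tenth within depth classes (0.31). The H4 ratio no longer passed in all pixels (0.25) or with Top2a alone (0.31). With 1 library left out H2B ranged from 0.16 to 0.40 and H3 from 0.25 to 0.50, and H2B passed without E12 (0.40) and H3 without E10 10 µm r1 (0.50), both with adjusted p = 0.0375 in an exact permutation test. After thinning pixels of at least 1000 counts to 1000, H2B was 0.10. The tenth, the grid settings, and leaving out libraries whose marker-rich pixels lacked marker counts were chosen after seeing the data.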
